A study of Caenorhabditis elegans with 14 samples.

Results

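The heat-inducible hsp-16 genes of the nematode Caenorhabditis elegans, hsp-16.1, hsp-16.11, hsp-16.2, hsp-16.41, hsp-16.48 and hsp-16.49, make up 6 of the 18217 genes named on the array and were represented by 4 of the 22548 probe sets tested. A probe set is a group of short oligonucleotides on an Affymetrix array that together report 1 transcript or several near-identical ones. The probe sets were taken by name, as those whose annotated symbols all belonged to these 6 genes. Probe set 188282_at reported hsp-16.2 alone and 188444_at reported hsp-16.41 alone. Probe set 189087_s_at was shared by hsp-16.1 and hsp-16.11, and 172901_x_at was shared by hsp-16.48 and hsp-16.49, so within each of these pairs no single gene can be named. The suffix x marks a probe set whose oligonucleotides can also match other sequences.

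The hsp-16 proteins are small heat shock proteins. They carry an alpha-crystallin domain and hold unfolding proteins in a soluble state without using ATP. Their genes are nearly silent in unstressed worms and are switched on by the transcription factor HSF-1 when worms are heated or poisoned, so hsp-16 reporters are widely used to read out stress in C. elegans. All 6 genes lie on chromosome V in the RefSeq annotation. There hsp-16.2 and hsp-16.41 are immediate neighbours, and hsp-16.1, hsp-16.48, hsp-16.49 and hsp-16.11 follow one another with no other protein-coding gene between them. The members of each neighbouring pair are known to be read in opposite directions from a shared promoter, hsp-16.1 with hsp-16.48, hsp-16.11 with hsp-16.49 and hsp-16.2 with hsp-16.41. In published reporter strains the hsp-16.2 and hsp-16.41 promoter was most active in intestine and pharynx, and the hsp-16.1 and hsp-16.48 promoter in muscle and hypodermis.

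Total RNA of whole wild-type N2 worms was hybridised to 14 arrays. All cultures were kept at 15 °C and synchronised to the L4 stage, the final larval stage, on a lawn of E. coli. Worms of 5 microwave arrays spent 2.5 h at 26 °C under a continuous field at 5 to 40 mW per kg of absorbed power, in a silver-plated transmission line cell. Worms of 5 sham arrays spent 2.5 h at 26 °C in a copper cell without the field, so both groups had been moved to the same warmer temperature. The frequency reads 1.8 GHz in one protocol of the labels and 1 GHz elsewhere. Each of these arrays carried RNA combined from 3 runs. There were also 2 arrays labelled heat control and 2 labelled heat shock, from N2 worms, for which no temperature or duration was given in the sources used here. The values were ratios, so absolute levels, signal over background and the presence of larval or tissue markers could not be checked. The labels describe worms of the same culture as divided between the microwave and sham plates. All sham values were exactly 1, and each microwave value was taken as relative to the sham array with its number, a couple called a pair here. A low ratio in a pair may thus come from a low microwave array or from a high sham array, and these cannot be told apart. The heat control values were ratios to the mean of the 2 heat control arrays, and the heat shock values were read on that same scale. In bulk RNA, fewer cells expressing a gene and less RNA per cell cannot be told apart either.

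Pair 1 stood apart from the other pairs before any hsp-16 value was considered. The standard deviation of its log2 ratios over all probe sets was 0.39 against 0.10 to 0.16 in pairs 2 to 5. Control transcripts with separate probe sets for their 3' and 5' ends gave a mean 3' minus 5' log2 ratio of -0.74 in pair 1, -0.13 in pair 2, -0.11 in pair 3, 0.03 in pair 4 and -0.10 in pair 5. The microwave means and the spread between pairs are therefore given with and without pair 1. The hsp-16 values also go against the labels of the heat arrays, as described below, so those arrays are called by their labels throughout.

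Whether the field changed hsp-16 transcripts at a matched temperature was asked over the 5 pairs. None of the 4 hsp-16 probe sets passed the test (limma, Benjamini-Hochberg adjusted p of 0.861 to 0.895), and the share of all probe sets that passed was 0.0%. At an unadjusted p under 0.05, 0 of the 4 passed, against 3.47% of all probe sets. Every mean over the 5 pairs lay within 0.18 log2 units of no change, and the sign was not the same in all pairs. Of all probe sets, 1.59% had a lower mean than hsp-16.2, and 12.5% to 16.3% had a lower mean than the other hsp-16 probe sets. Without pair 4 the mean of hsp-16.2 was -0.36 and those of the other probe sets -0.21 to -0.20 (limma adjusted p of 0.597 to 0.598).

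The hsp-16.2 ratio was 0.686 in pair 1, 1.03 in pair 2, 0.737 in pair 3, 1.469 in pair 4 and 0.706 in pair 5. Its values were thus low in pairs 1, 3 and 5, near 1 in pair 2 and high in pair 4. The mean log2 ratio was -0.18 ± 0.47 (SD, n = 5 pairs), and the limma adjusted p was 0.861. The 95% interval of the mean ran from 1.47-fold lower to 1.15-fold higher.

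The hsp-16.41 ratio was 0.873 in pair 1, 1.012 in pair 2, 0.72 in pair 3, 1.319 in pair 4 and 0.877 in pair 5. The low value was here in pair 3, and pair 4 was again the highest. The mean log2 ratio was -0.09 ± 0.32 (SD, n = 5 pairs; limma adjusted p = 0.873), with an interval from 1.28-fold lower to 1.13-fold higher.

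The probe set shared by hsp-16.1 and hsp-16.11 gave ratios of 0.687, 1.097, 0.837, 1.348 and 0.9 in pairs 1 to 5. Pairs 2 and 4 were above 1 and the other pairs below it. The mean log2 ratio was -0.08 ± 0.37 (SD, n = 5 pairs; limma adjusted p = 0.895), with an interval from 1.3-fold lower to 1.17-fold higher.

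The probe set shared by hsp-16.48 and hsp-16.49 gave ratios of 0.712, 1.019, 0.914, 1.308 and 0.843 in the same order. The order of the pairs was the same as for hsp-16.2 at the extremes, with pair 1 lowest and pair 4 highest. The mean log2 ratio was -0.09 ± 0.33 (SD, n = 5 pairs; limma adjusted p = 0.873), and the interval ran from 1.28-fold lower to 1.13-fold higher. Without pair 1 the mean log2 ratio of this probe set was 0.01 and that of hsp-16.1 and hsp-16.11 was 0.04, while hsp-16.2 stood at -0.09 and hsp-16.41 at -0.06.

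**Figure D1:**
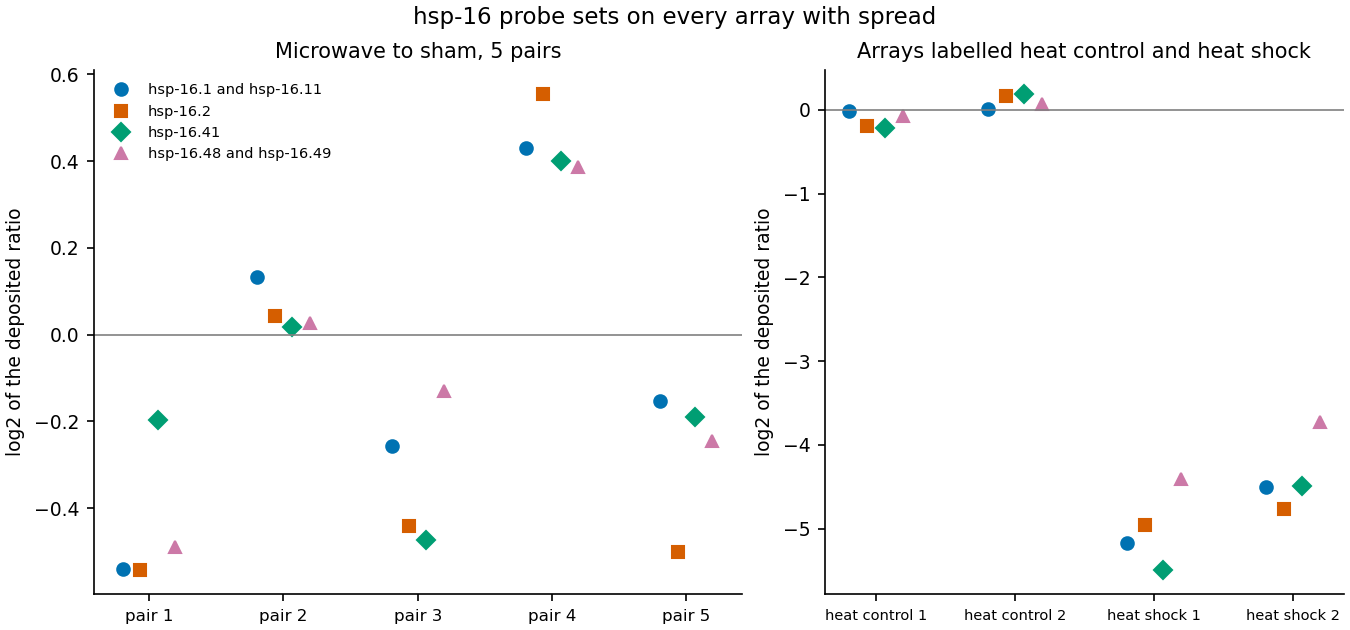
Each point is the log2 of the deposited ratio of 1 hsp-16 probe set on 1 array, for the 5 microwave to sham pairs (left) and the 4 heat arrays (right, on a wider scale). The probe sets lie on the same side of 0 within every pair, with pair 4 between 0.39 and 0.55 and pair 1 between -0.54 and -0.20, and both arrays labelled heat shock lie below -3.7.

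The hsp-16 probe sets differed more between pairs than from one another within a pair. In pair 4 all 4 were above 0, with a mean log2 ratio of 0.44 and a range from 0.39 to 0.55. In pair 2 all 4 were above 0 as well, between 0.02 and 0.13. In pairs 1, 3 and 5 all 4 were below 0, with means of -0.44, -0.33 and -0.27. Within a pair the SD over the 4 probe sets was between 0.05 and 0.17, whereas the SD over pairs was between 0.32 and 0.47 for each probe set. All 4 were read from the same RNA pools in each pair, so they are not independent measurements of the pairs. Whether they also share labelled RNA through similar sequences was not tested.

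This spread between pairs was wide for the array. The median SD over the 5 pairs was 0.35 for the hsp-16 probe sets and 0.15 over all probe sets. For hsp-16.2, 2.68% of all probe sets had a larger SD. The share was 6.4% for hsp-16.1 and hsp-16.11, 9.58% for hsp-16.48 and hsp-16.49, and 9.84% for hsp-16.41. Over pairs 2 to 5, without the pair of widest spread, the hsp-16 median was 0.34 and the median of all probe sets was 0.11. On that basis 0.071% of probe sets had a larger SD than hsp-16.2 and 0.528% a larger one than hsp-16.41. For the shared probe sets the corresponding shares were 1.77% for hsp-16.1 and hsp-16.11 and 3.23% for hsp-16.48 and hsp-16.49.

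Within single pairs hsp-16 lay far from the middle for all probe sets in pair 4 and for some in pairs 1, 3 and 5. In pair 4 only 13 of the 22548 probe sets had a higher ratio than hsp-16.2, and 87, 126 and 149 had a higher ratio than hsp-16.1 and hsp-16.11, hsp-16.41, and hsp-16.48 and hsp-16.49. In pair 5 only 7 probe sets had a lower ratio than hsp-16.2. In pair 3 there were 56 below hsp-16.41 and 108 below hsp-16.2. In pair 1, where all ratios spread more widely, 705 lay below hsp-16.2. Other hsp-16 probe sets were less extreme in these pairs. Of all probe sets, 23.2% lay below hsp-16.41 in pair 1 and 21.4% below hsp-16.48 and hsp-16.49 in pair 3. In pair 5, 10.9% lay below hsp-16.1 and hsp-16.11. In pair 2 the hsp-16 probe sets stood between 53.8% and 89.4% of the way up the array. The mean 3' minus 5' difference of the control transcripts was highest in pair 4, at 0.03, the pair in which hsp-16 was highest, and its part in the result was not tested.

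**Figure D2:**
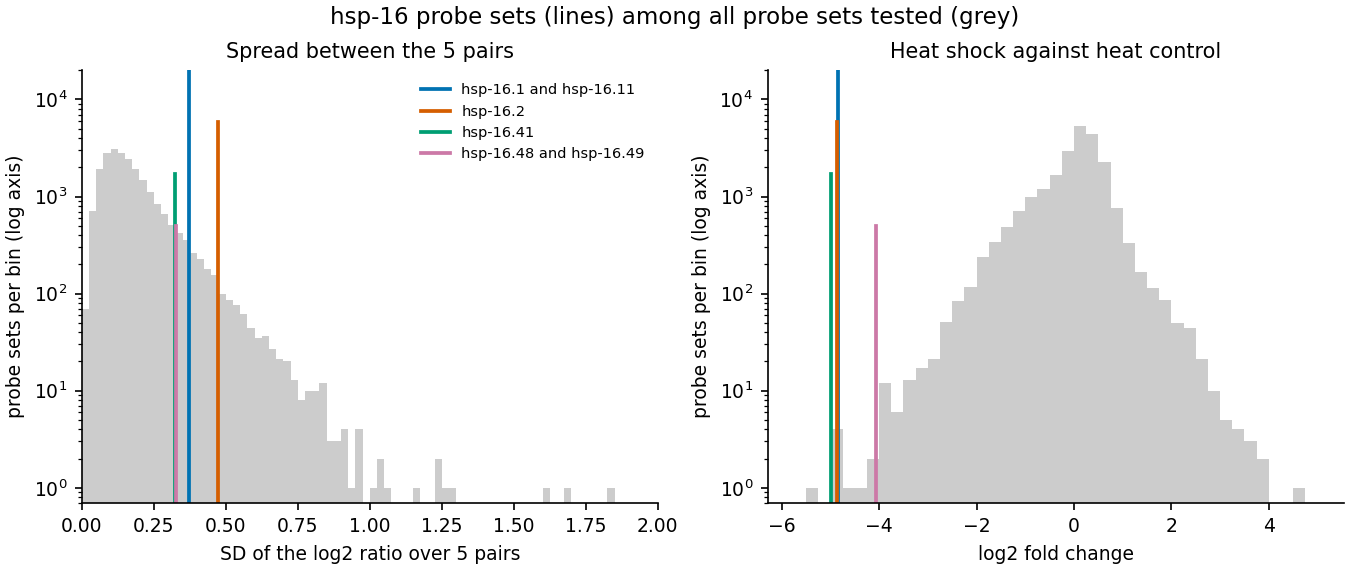
Grey bars count all probe sets tested (log axis) by the SD of their log2 ratio over the 5 pairs (left) and by their log2 fold change, arrays labelled heat shock minus heat control (right); coloured lines of unequal height mark the hsp-16 probe sets. Their SDs of 0.32 to 0.47 lie in the upper tail around a median of 0.15 for all probe sets, and their heat values of -4.07 to -4.98 lie at the lower end.

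The heat arrays addressed the response to heat shock, which is known to raise hsp-16 transcripts strongly. All 4 hsp-16 probe sets were lower in the arrays labelled heat shock than in those labelled heat control, by 16.8-fold to 31.6-fold, and all 4 passed the test (limma, adjusted p of 0.00202 to 0.00212). Of all probe sets, 15.3% passed toward lower values and 30.0% in either direction. Heated worms are known to carry more of these transcripts, so the direction goes against the labels, and each heat fold change below would change sign but not size were labels or ratio inverted.

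The hsp-16.41 ratio was 0.86 and 1.14 in the heat control arrays and 0.0221 and 0.0445 in the arrays labelled heat shock. The groups were far apart, and the arrays labelled heat shock differed from each other by 1.01 log2 units, more than for any of the other hsp-16 probe sets. The log2 fold change was -4.98 ± 0.35 (SE, n = 2 arrays per group), which is 31.6-fold lower, with a 95% interval from -5.88 to -4.09 on the log2 scale (limma adjusted p = 0.00212).

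The hsp-16.2 ratio was 0.878 and 1.122 in the heat control arrays and 0.0321 and 0.0366 in the arrays labelled heat shock. Here the arrays labelled heat shock differed by only 0.19 log2 units, less than the 0.35 between the heat control arrays. The log2 fold change was -4.86 ± 0.17 (SE, n = 2 per group), or 29.0-fold lower, with an interval from 21.5-fold to 39.1-fold (limma adjusted p = 0.00202).

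The probe set shared by hsp-16.1 and hsp-16.11 gave ratios of 0.991 and 1.009 in the heat control arrays, against 0.0278 and 0.044 in those labelled heat shock. The control values were nearly equal, and the arrays labelled heat shock differed by 0.66 log2 units. The log2 fold change was -4.84 ± 0.24 (SE, n = 2 per group), or 28.6-fold lower, with an interval from 18.9-fold to 43.2-fold (limma adjusted p = 0.00202).

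The probe set shared by hsp-16.48 and hsp-16.49 gave 0.947 and 1.053 in the heat control arrays and 0.0469 and 0.0755 in those labelled heat shock. These were the highest of the hsp-16 ratios in both arrays labelled heat shock. The log2 fold change was -4.07 ± 0.25 (SE, n = 2 per group), or 16.8-fold lower, with an interval from 10.9-fold to 25.8-fold (limma adjusted p = 0.00202).

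The groups did not overlap for any of the 4 probe sets, and 28.1% of all probe sets had both arrays labelled heat shock below both controls (72.4% were without overlap in either direction). The median of all probe sets was 0.12 log2 units higher in the arrays labelled heat shock. With each array centred on its own median, the hsp-16 log2 fold changes lay between -5.08 and -4.17, and 17.5% of all probe sets passed toward lower values and 9.65% toward higher ones, where 14.7% had passed toward higher values without centring. The call rested on few arrays: without array 1 labelled heat shock 0 of the 4 probe sets passed (limma adjusted p = 0.0546, with median log2 fold change -4.49), and with the variance of each probe set taken alone 0 passed (adjusted p of 0.09 to 0.111). After quantile normalisation of the 4 heat arrays 0 passed either (adjusted p = 0.374), with a median of -3.68.

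**Figure D3:**
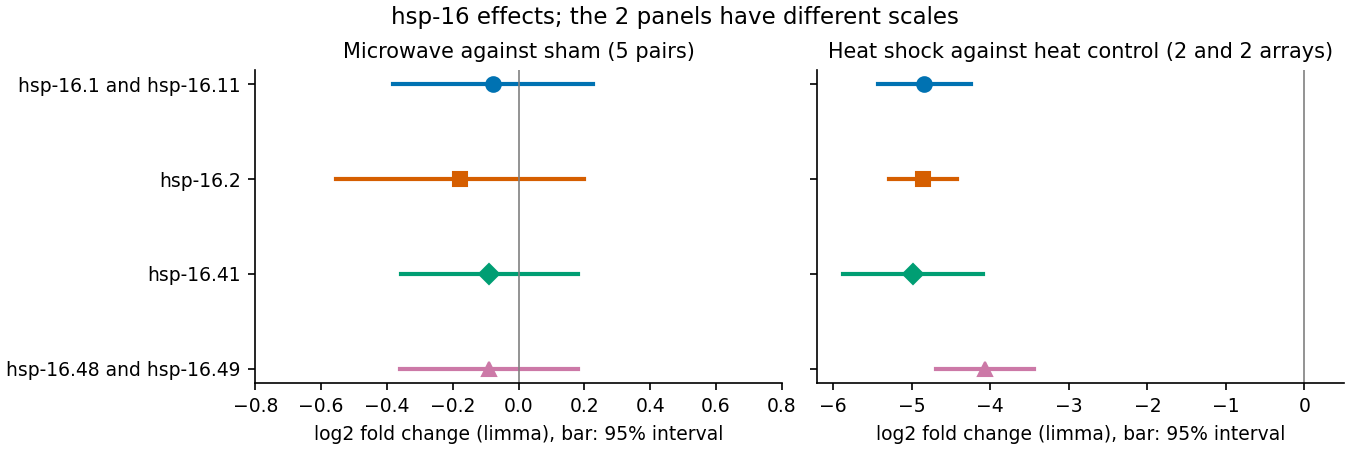
Points are the limma log2 fold changes of the hsp-16 probe sets and bars their 95% intervals, for microwave against sham (left, n = 5 pairs) and for the arrays labelled heat shock against heat control (right, n = 2 per group), on different scales. The microwave intervals all include 0 and lie between -0.55 and 0.23, and the heat intervals lie between -5.88 and -3.45.

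Among all 22548 probe sets the hsp-16 ones ranked 2nd, 4th, 5th and 9th from the lowest log2 fold change of the heat comparison. Only 9 probe sets, or 0.0399%, had a log2 fold change below -4, and these included all 4 hsp-16 probe sets. The only value lower than that of hsp-16.41 came from a probe set shared by F44E5.4 and F44E5.5, a duplicated pair of heat-inducible Hsp70 genes. That probe set, 190958_s_at, stood at -5.34 ± 0.25 (limma adjusted p = 0.00202), and a second probe set of the same genes stood at -4.94 ± 0.14 (both SE). The direction of these heat-inducible genes, like that of hsp-16, goes against the label heat shock.

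The hsp-16 probe sets were compared with one another within each array, which takes the array as a common base. The difference of hsp-16.41 minus hsp-16.48 and hsp-16.49 was -0.14 and 0.11 in the heat control arrays and -1.09 and -0.76 in the arrays labelled heat shock. For hsp-16.2 minus the same probe set the values were -0.11 and 0.09, then -0.55 and -1.04. For hsp-16.1 and hsp-16.11 minus it they were 0.07 and -0.06, then -0.75 and -0.78. From heat control to heat shock labels these differences moved by -0.91, -0.79 and -0.77 log2 units. Among the other 3 probe sets the corresponding values were 0.02 to 0.14. They are given as values without a test; an exact permutation test of 2 arrays against 2 cannot go below p = 0.333. Whether oligonucleotides that match other sequences set the smaller change of the x-marked probe set was not tested.

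The heat difference and the microwave difference were then compared directly in 1 limma fit over the 9 arrays with spread. The heat effect minus the microwave effect was -3.98 ± 0.31 log2 units for hsp-16.48 and hsp-16.49 and -4.89 ± 0.37 for hsp-16.41 (SE). All 4 probe sets passed (limma adjusted p of 2.26e-05 to 3.98e-05), where 16.8% of all probe sets passed in that direction and 20.3% in the opposite one. With the sign of the heat effect turned, the same subtraction gave 4.16 ± 0.31 for hsp-16.48 and hsp-16.49 and 5.07 ± 0.37 for hsp-16.41, and all 4 passed (limma adjusted p of 2.24e-05 to 3.25e-05) toward higher values, as did 14.1% of all probe sets. As labelled, the shared probe set of hsp-16.1 and hsp-16.11 and that of hsp-16.2 lay between the values of the other probe sets, at -4.76 ± 0.33 and -4.68 ± 0.36. With every microwave mean within 0.18 log2 units of no change, either subtraction largely restates the heat difference and is no separate result. Its variance was shared with the pairs, and with that variance the heat test alone gave limma adjusted p of 9.31e-06 to 1.53e-05.

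The genes with the most similar pattern were sought by the Euclidean distance between log2 ratios over the same 9 arrays, starting from the mean profile of the hsp-16 probe sets. The hsp-16 probe sets themselves lay 0.316 to 0.907 from that mean. The nearest single-gene probe sets outside the family belonged to F45D3.4 at 1.11, the lysozyme gene lys-10 at 1.28, the bestrophin family gene best-14 at 1.29, ule-3 at 1.44 and H40L08.2 at 1.8. The median distance of all 20808 single-gene probe sets outside the family was 6.85. The mean hsp-16 profile stood at -5.01 and -4.37 in the arrays labelled heat shock and between -0.44 and 0.44 elsewhere. How far a probe set lay from it was thus set mostly by those 2 arrays, and a small distance mostly means similar values there. The shared probe sets of F44E5.4 and F44E5.5 lay at 0.996 and 1.46. The nearest gene, F45D3.4, stood at -4.87 and -4.65 in the arrays labelled heat shock, where hsp-16 averaged -5.01 and -4.37. For lys-10 the values there were -4.01 and -3.73. In pairs 1, 2, 3 and 5 lys-10 stood at -0.49, 0.10, -0.29 and -0.27, beside hsp-16 means of -0.44, 0.06, -0.33 and -0.27. These values were part of the distance by which the genes were chosen, so such closeness is in part built in. In the same pairs F45D3.4, the nearest gene, stood at -0.14, -0.14, -0.08 and 0.04. In pair 4, where hsp-16 averaged 0.44, the 5 named genes stood between -0.02 and 0.06. The first shared probe set of F44E5.4 and F44E5.5, 171941_s_at, was at 0.50 in pair 4 and -0.94 in pair 1, and the second, 190958_s_at, was at 0.12 and 0.51, so the probe sets of that pair differed from each other in sign in pair 1.

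Other genes of the heat shock response were taken from a list of 40, of which 37 had a probe set of their own. In the arrays labelled heat shock 16 of the 37 fell, 2 rose and 19 did not pass (limma at gene level, adjusted p under 0.05), against 14.8% of all genes that fell and 15.2% that rose. Their median log2 fold change was -0.43, where that of all genes was 0.13. Without array 1 labelled heat shock the median of the list was -0.45, and without array 2 labelled heat shock it was -0.38. Each of these fits leaves 1 array in that group, so only the effect size is given. In the microwave comparison 0 of the 37 passed, as did 0.0% of all genes, with log2 fold changes between -0.12 and 0.29. Without pair 1 again 0 passed, and the range was -0.11 to 0.15, with the kinase co-chaperone gene cdc-37 at the upper end both times. At an unadjusted p under 0.05, 4 of the 37 passed with pair 1 and 3 without it, where 3.35% and 3.58% of all genes did.

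The other small heat shock protein genes had log2 fold changes between -0.79 and 1.08, all outside the hsp-16 range. Of 12 measured, 2 fell, 2 rose and 8 did not pass. With each array centred on its median, 1 gene of the whole list rose. The muscle-associated hsp-25 fell, at -0.79 ± 0.12, as did hsp-43 at -0.78 ± 0.21 (SE, n = 2 per group). The genes hsp-12.1 and hsp-12.2, which encode very small family members, rose, at 1.08 ± 0.17 and 0.52 ± 0.13. The value of hsp-17 was -0.62 ± 0.21 (limma adjusted p = 0.0837). The genes hsp-16.20 and hsp-16.21, named here because they carry the hsp-16 name in the current annotation, had log2 fold changes of -0.05 ± 0.13 and -0.07 ± 0.12, with limma adjusted p-values of 0.762 and 0.66. In pair 4 their log2 ratios were 0.05 and -0.13. By contrast hsp-12.1, at 0.43 in pair 4 and -0.84 in pair 1, had its extremes in the same pairs as hsp-16.2, while its heat difference had the opposite sign.

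Among genes of the Hsp70 and Hsp110 chaperones, 3 of 5 fell and 0 rose. The heat-inducible hsp-70 fell 10.1-fold, at -3.34 ± 0.17, the nucleotide exchange partner hsp-110 stood lower at -1.89 ± 0.16 and stc-1 at -1.53 ± 0.21 (SE, n = 2 per group; limma adjusted p of 0.0023 to 0.00834). The direction of the heat-inducible hsp-70, like that of hsp-16, goes against the label heat shock. The constitutive hsp-1 had -0.43 ± 0.18 (limma adjusted p = 0.137). In the microwave pairs the log2 ratios of hsp-70 were 0.19, 0.21, 0.11, 0.03 and 0.18 in pairs 1 to 5, lowest in pair 4, where hsp-16 was highest.

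Hsp90 and its partners gave 4 genes of 6 that fell and 0 that rose. The p23 co-chaperone gene daf-41 fell, at -1.92 ± 0.19, as did ahsa-1, the activator of the Hsp90 ATPase, at -1.40 ± 0.21 and the kinase-recruiting cdc-37 at -1.13 ± 0.25. For hsp-90 itself the value was -0.47 ± 0.13 (limma adjusted p = 0.0474). Its probe sets stood at -0.52 and -0.43 (limma adjusted p of 0.0469 and 0.0596), so only the first passed. All 5 measured genes of the DnaJ and nucleotide exchange group fell. The DnaJ genes dnj-13 and dnj-19, which deliver clients to Hsp70, fell by 1.80 and 1.63 on the log2 scale, and the BAG-domain genes bag-1 and unc-23 by 1.32 and 1.19. The probe sets of unc-23 stood at -1.56 and -0.83 (limma adjusted p of 0.0064 and 0.0551), so only the first passed. The probe sets of dnj-12 disagreed, at -2.21 and 0.41, so its mean of -0.90 stands for neither.

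Among 8 regulators 2 fell, 0 rose and 6 did not pass. The gene of HSF-1 itself, hsf-1, had a log2 fold change of 0.35 ± 0.14 (limma adjusted p = 0.114), and ddl-1, for a binding partner that holds HSF-1 inactive, 0.39 ± 0.20 (adjusted p = 0.198). The transcription factor genes skn-1 and pqm-1 fell, at -1.41 ± 0.12 and -1.41 ± 0.18. The ubiquitin fusion gene ubq-2 stood at 0.25 ± 0.11 (adjusted p = 0.152).

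**Figure D4:**
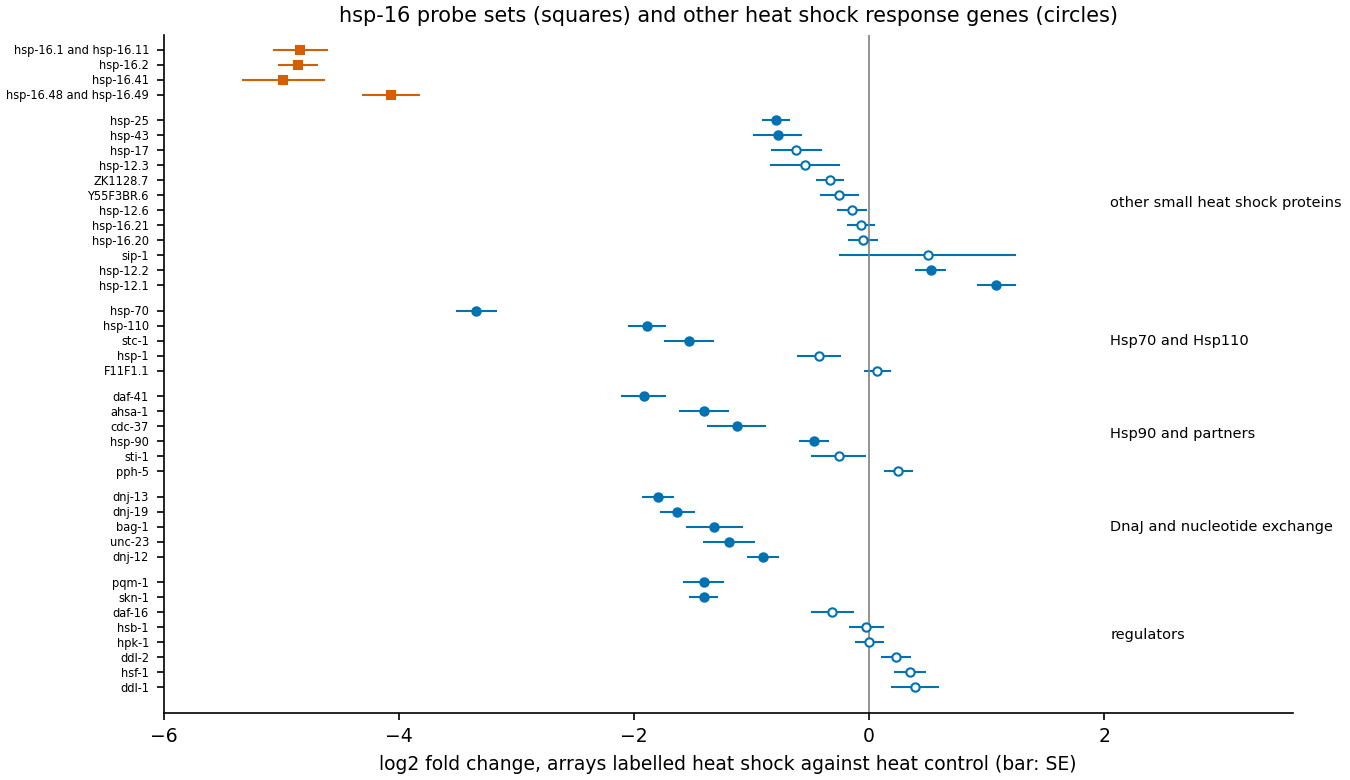
Log2 fold changes of the arrays labelled heat shock against heat control with their SE (bars) for the hsp-16 probe sets (squares) and for the other heat shock response genes by group (circles, filled where the limma adjusted p is under 0.05). The hsp-16 probe sets lie between -4.98 and -4.07, the nearest listed gene with a probe set of its own is hsp-70 at -3.34 (ubq-2 is not drawn), and the other small heat shock protein genes lie between -0.79 and 1.08.

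Tissue marker genes also moved between the heat groups. Of 13 listed markers 12 were measured, of which 5 rose and 4 fell (limma adjusted p under 0.05), against 15.2% and 14.8% of all genes. The sperm genes msp-3, msp-19, msp-31 and msp-142 rose, by 0.68 to 2.38, as did the adult cuticle collagen gene col-19, at 0.63. The other cuticle collagen gene listed, rol-6, had -0.58 ± 0.34 (SE; limma adjusted p = 0.244). The muscle genes unc-54 and myo-3 fell, at -1.21 and -0.88, as did the intestinal genes ges-1 and act-5, at -1.24 and -0.82. The mean log2 ratio over the 12 markers was -0.32 and 0.16 in the heat control arrays and 0.05 and 0.05 in those labelled heat shock. In the arrays labelled heat shock, markers that rose and markers that fell offset each other in this mean. The yolk gene vit-2 differed within the controls, at -1.57 and 0.73, whereas the hsp-16 probe sets differed there by 0.03 to 0.41. Leaving out 1 array leaves 1 in its group, so only the median log2 fold change of the markers is given. It was -0.17 over all 4 heat arrays, -0.13 without array 1 labelled heat shock and -0.21 without array 2 labelled heat shock. Without heat control array 1 it was -0.43, and without heat control array 2 it was 0.70. The part of tissue composition in the hsp-16 result was not tested.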

How the data were processed

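Gene expression was measured on 14 single-colour arrays, grouped by their labels: 5 sham, 5 microwave, 2 heat control and 2 heat shock. The deposited values are linear ratios. The labels' protocols describe GCOS with MAS 5 normalisation, whereas RMA appears in the submitters' processing notes. The sources used here do not say which of them made the ratios, and the genome build is not given in them. The sham columns hold 0 values other than 1, and the heat control columns sum to 2 within 0.001. The baseline of the microwave and heat shock ratios was inferred. The labels do not say that arrays come from separate cultures, so p-values measure the spread between these RNA samples. Combining RNA of 3 runs is given only for the sham and microwave arrays. For arrays, depth is not defined, and their number limits precision.

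After removal of 77 control probe sets, log2 ratios of 22548 probe sets were fitted with limma 3.58.1 in R 4.3.3, with Benjamini-Hochberg adjustment over all probe sets and a threshold of 0.05, two-sided. For microwave, the mean of the 5 log2 ratios was tested against 0, a paired test by construction. The heat test set 2 arrays against 2 without a block. Gene-level fits averaged, for 17138 genes, the probe sets specific to each. Probe sets were named from the platform annotation, with symbols updated by gene ID in RefSeq (WBcel235). The fits were tested on simulated data. The genes and lists were chosen with earlier results of these data known. The named genes were all hsp-16 probe sets, up to 4 genes per list group by size of the heat difference, and the 5 nearest patterns; hsp-12.2, dnj-12, hsp-16.20, hsp-16.21 and F44E5.4 with F44E5.5 were added after their values were seen, as were the marker genes given with values. A planned motif search was not run, since no sequences were used here. The array information sheets hold no measurement. Alternatives were other scalings, variance models, array weights, omission of s- and x-marked probe sets outside the family, a replicate block and leaving out each array.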

Additional observations from a re-analysis of the deposited data

Results flagged for a closer look

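Of 25 genes and probe sets examined over the 5 microwave to sham pairs, 3 had 1 pair far from the other 4 by Dixon's test, where chance flags about 1 group in 20. None of the 4 hsp-16 probe sets was among them. The Hsp90 activator gene ahsa-1 had its highest log2 ratio, 0.42, in pair 1, with the others between -0.13 and -0.01. The transcription factor gene skn-1 stood at 0.86 in pair 1 and between 0.005 and 0.22 elsewhere. The Hsp70-like stc-1 stood at 0.27 in pair 1 and between -0.11 and -0.03 elsewhere. All 3 lie in the pair with the widest spread over all probe sets.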

How the results depend on the processing

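In the microwave comparison 0 of 4 hsp-16 probe sets passed under every alternative run (lowest adjusted p = 0.597, without pair 4), and leaving out pairs moved their median log2 ratio between -0.21 and -0.03. Without single pairs, hsp-16.1 and hsp-16.11 ranged from -0.2042 to 0.0389, hsp-16.2 from -0.3609 to -0.0863, hsp-16.41 from -0.2105 to 0.0078, and hsp-16.48 and hsp-16.49 from -0.2098 to 0.0096. The mean of hsp-16.1 and hsp-16.11 turned positive after quantile normalisation (0.0236), with array weights (0.0110) and without pair 1 (0.0389), that of hsp-16.48 and hsp-16.49 without pair 1 (0.0096), and that of hsp-16.41 without pair 3 (0.0078). In the heat comparison 4 passed under centring, robust variances, omission of s- and x-marked probe sets outside the family, variance shared with the pairs (adjusted p of 9.31e-06 to 1.53e-05) and the replicate block (adjusted p = 0.0166). The count was 0 after quantile normalisation, which forces columns of unequal spread to one distribution and moved the median from -4.85 to -3.68, and 0 with ordinary variances. Leaving out each heat array gave hsp-16 medians from -5.06 to -4.49. Each of those fits leaves 1 array in a group, and a lone array was assumed to vary like the others. The difference between both effects kept 4 of 4 under centring, robust variances and leaving out each pair. It was not run with quantile normalisation or ordinary variances, where the heat count was 0. Leaving out single heat arrays moved its median between -4.93 and -4.41. With the heat direction turned the difference was 4.9147 for hsp-16.1 and hsp-16.11, 5.0336 for hsp-16.2, 5.0692 for hsp-16.41 and 4.1591 for hsp-16.48 and hsp-16.49. That alternative was chosen after seeing the data. Replicate numbers were not used as pairs in the heat test: over probe sets, the difference between replicates correlated at -0.0545 between the groups. With the replicate block 4312 probe sets passed in all against 6774 without it. The total was 4340 of 15839 without s- and x-marked probe sets, 9 with ordinary variances (6680 at an unadjusted p under 0.05) and 0 after quantile normalisation (1959 unadjusted). In further alternatives of that kind, the listed heat shock response genes that fell and rose numbered 17 and 1 after centring, 14 and 1 with the replicate block, and 0 and 0 after quantile normalisation and with ordinary variances (7 and 16 unadjusted). Leaving out heat arrays gave 0 to 20 that fell and 0 to 4 that rose, and leaving out pairs gave 0 listed genes in the microwave test. Signal over background is unknown here, so a lower limit to the ratios in the arrays labelled heat shock could not be set.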
